A study of Mus musculus with 27 samples.

Results

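The Serpina3 family is a group of neighbouring serpin genes on mouse chromosome 12, and 6 of its genes were followed here: Serpina3c, Serpina3f, Serpina3g, Serpina3k, Serpina3m and Serpina3n. They were taken by symbol, through the Ensembl gene identifiers of the deposited table, as 6 of its 43346 genes. The libraries are RNA-seq of hepatocytes, the main cell type of the liver, and all mice were females aged 12 weeks. Each of 9 inbred strains had 3 libraries, labelled as biological replicates, for 27 in all; the labels name no treatment and no altered allele. The strains were C57BL/6J, which is the strain of the mouse reference genome, NOD/ShiLtJ (prone to autoimmune diabetes), NZO/HlLtJ (prone to obesity), DBA/2J, A/J and 129S1/SvImJ, and the wild-derived WSB/EiJ, CAST/EiJ and PWK/PhJ. The study asked how strain differences in genotype relate to chromatin and to expression, and only expression is analysed here.

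Serpins are protease inhibitors that offer an exposed reactive centre loop as bait; the protease cleaves the loop and is trapped in a covalent complex. Humans have a single SERPINA3 gene, which encodes alpha-1-antichymotrypsin, an acute phase protein made by the liver. In mice the gene has been duplicated many times, and the copies differ most in the loop that meets the protease. Serpina3k encodes an abundant plasma protein also known as contrapsin or kallikrein-binding protein. Serpina3n encodes an inhibitor of granzyme B and neutrophil elastase that is induced in the acute phase and by glucocorticoids. Serpina3g, also known as Spi2A, encodes an intracellular inhibitor of cathepsins described mainly in immune cells.

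In GENCODE M21 gene models (GRCm38), 14 genes and pseudogenes named Serpina3 with a letter lay in 301.6 kb at chr12:104112724-104414329. Serpina3c (ENSMUSG00000066361, chr12:104146382-104153870) was on the minus strand. Serpina3f (ENSMUSG00000066363, chr12:104214544-104221129), Serpina3g (ENSMUSG00000041481, chr12:104236245-104241939), Serpina3k (ENSMUSG00000058207, chr12:104338486-104346144), Serpina3m (ENSMUSG00000079012, chr12:104338486-104394257) and Serpina3n (ENSMUSG00000021091, chr12:104406729-104414329) were on the plus strand. The model of Serpina3m spanned the whole of Serpina3k, and 1 of its transcripts started with the same 60-base exon as Serpina3k, at chr12:104338486-104338545. All 6 members are annotated as protein coding.

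The coding bases of the reactive centre loop are shown because each of the other members was less like Serpina3n there than in the coding bases before it. Each line runs 5′ to 3′ on the coding strand and was read from the GENCODE M21 transcripts (GRCm38). Capitals mark bases that differ from Serpina3n, or have no partner base in it, in a pairwise alignment, and gaps are not shown.
Serpina3c (chr12:104147322-104147393, - strand): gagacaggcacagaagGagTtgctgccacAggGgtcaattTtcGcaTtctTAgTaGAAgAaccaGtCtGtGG
Serpina3f (chr12:104220239-104220322, + strand): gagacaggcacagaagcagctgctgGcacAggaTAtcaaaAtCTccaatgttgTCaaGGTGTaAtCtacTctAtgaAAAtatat
Serpina3g (chr12:104241066-104241146, + strand): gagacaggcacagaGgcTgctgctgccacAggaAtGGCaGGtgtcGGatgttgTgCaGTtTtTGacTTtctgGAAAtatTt
Serpina3k (chr12:104345263-104345337, + strand): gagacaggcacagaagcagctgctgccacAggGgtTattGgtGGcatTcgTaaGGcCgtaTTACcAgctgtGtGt
Serpina3m (chr12:104393763-104393843, + strand): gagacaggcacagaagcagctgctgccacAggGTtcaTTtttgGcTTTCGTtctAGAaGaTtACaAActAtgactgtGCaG
Serpina3n (chr12:104413442-104413522, + strand): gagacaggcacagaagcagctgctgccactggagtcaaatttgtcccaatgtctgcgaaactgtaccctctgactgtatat

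Against Serpina3n, and over bases aligned to a base, identity in the loop was 73.6% for Serpina3c, 80.8% for Serpina3f, 70.9% for Serpina3g, 78.1% for Serpina3k and 69.1% for Serpina3m. In the coding bases before the loop, counted in the same way, it was between 85.3% (Serpina3k) and 89.5% (Serpina3g). Over coding bases aligned to a base, with free ends, Serpina3k and Serpina3m were 92.6% identical, Serpina3c and Serpina3m 90.3%, and Serpina3f and Serpina3g 87.4% (over the 744 coding bases of Serpina3g). For each member the longest transcript annotated as protein coding was used. In that transcript Serpina3g had a coding sequence of 744 bases, against 1251 to 1335 in the other 5 members. Serpina3g has 4 transcripts in these models, and the coding lengths of the others were not compared.

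Such likeness lets a short read match more than 1 member, and the table holds estimated counts, in which reads may have been divided between genes. Counts were not whole, by more than 0.001, in 27 of 27 libraries for Serpina3c, Serpina3k and Serpina3m, in 26 for Serpina3g and Serpina3n, and in 23 for Serpina3f. Of all values deposited, 10.8% were not whole. This share takes in the values at 0, which are whole, so it is not a share over expressed genes. The farthest value from a whole number was 0.499, in Serpina3g, and rounding changed a count by up to 24.8% in Serpina3f, where a library could hold 1 count. In Serpina3k, Serpina3m and Serpina3n rounding changed no count by more than 0.00663%, and in Serpina3c by no more than 0.0908%.

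The exposure of each member to shared reads was set out by counting the stretches of its transcript that also occur, letter for letter, in another gene. With stretches of 75 bases the share was 0.33% in Serpina3c, 1.46% in Serpina3n, 5.61% in Serpina3f, 7.36% in Serpina3k, 8.91% in Serpina3g and 9.65% in Serpina3m. Serpina3m shared most with Serpina3k (9.21% of its stretches), and Serpina3g most with the pseudogene Serpina3h (4.97%). No stretch of 100 bases of Serpina3c occurred elsewhere, against 6.09% in Serpina3m. The read length is not given in the sources used here, so levels of all members that share stretches are uncertain. The counts do not show whether or how reads were divided. These shares do not bound that uncertainty: a low member that shares stretches with a far more abundant one, as Serpina3m does with Serpina3k, could be affected by more than its own share, and Serpina3f and Serpina3g hold few counts. It is likewise not given whether reads were matched to the C57BL/6J genome or to that of each strain.

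Library totals ran from 17015956 to 35078511 estimated counts, and 1 count stood for between 0.0253 and 0.0516 CPM (counts divided by the scaled library total, on the usual CPM scale). Summed hepatocyte markers ran from 103318 to 310247 CPM over libraries, and no hepatocyte marker was at 0 in any strain. Summed markers of Kupffer cells, the macrophages of the liver, ran from 33.4 to 414 CPM. WSB/EiJ replicate 4 stood apart in acute phase genes: Saa1, which encodes a serum amyloid A protein, was at 487 CPM there and at 23.7 and 32.5 CPM in the other WSB/EiJ libraries. Lcn2, which encodes lipocalin 2, was at 571 CPM against 50.8 and 63.4. CAST/EiJ replicate 5 also stood apart, with Saa1 at 142 CPM against 3.04 and 8.28, and PWK/PhJ replicate 1 had Saa1 at 122 CPM against 8 and 27.1. Lcn2 was low there, at 1.29 CPM against 0.236 and 0.574 in CAST/EiJ and at 4.55 CPM against 4.98 and 2.42 in PWK/PhJ. Serpina3n was the highest of its strain in each of these 3 libraries.

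All 6 members passed the filter on low counts, and all 6 had a strain effect in edgeR's quasi-likelihood F test with Benjamini-Hochberg adjustment over 14482 genes. The background in this test was high, since 74.2% of all genes tested were called. The adjusted p was 9.66e-22 for Serpina3c, 1.09e-11 for Serpina3m, 2.38e-06 for Serpina3n, 6.56e-05 for Serpina3k, 0.00133 for Serpina3f and 0.00171 for Serpina3g. Strain means of log2(CPM + 0.5) spanned 8.66 for Serpina3c, 3.26 for Serpina3m, 2.67 for Serpina3g, 2.00 for Serpina3n, 1.83 for Serpina3k and 1.81 for Serpina3f, beside a median span of 0.94 over all genes tested. The spans of the low members depended on the pseudocount. With 0.1 the span was 3.11 for Serpina3f, 3.25 for Serpina3g and 9.43 for Serpina3c. With 2 it was 0.79 for Serpina3f, 1.74 for Serpina3g and 7.33 for Serpina3c, which put Serpina3g below Serpina3n (1.99) and Serpina3k (1.83).

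**Figure D1:**
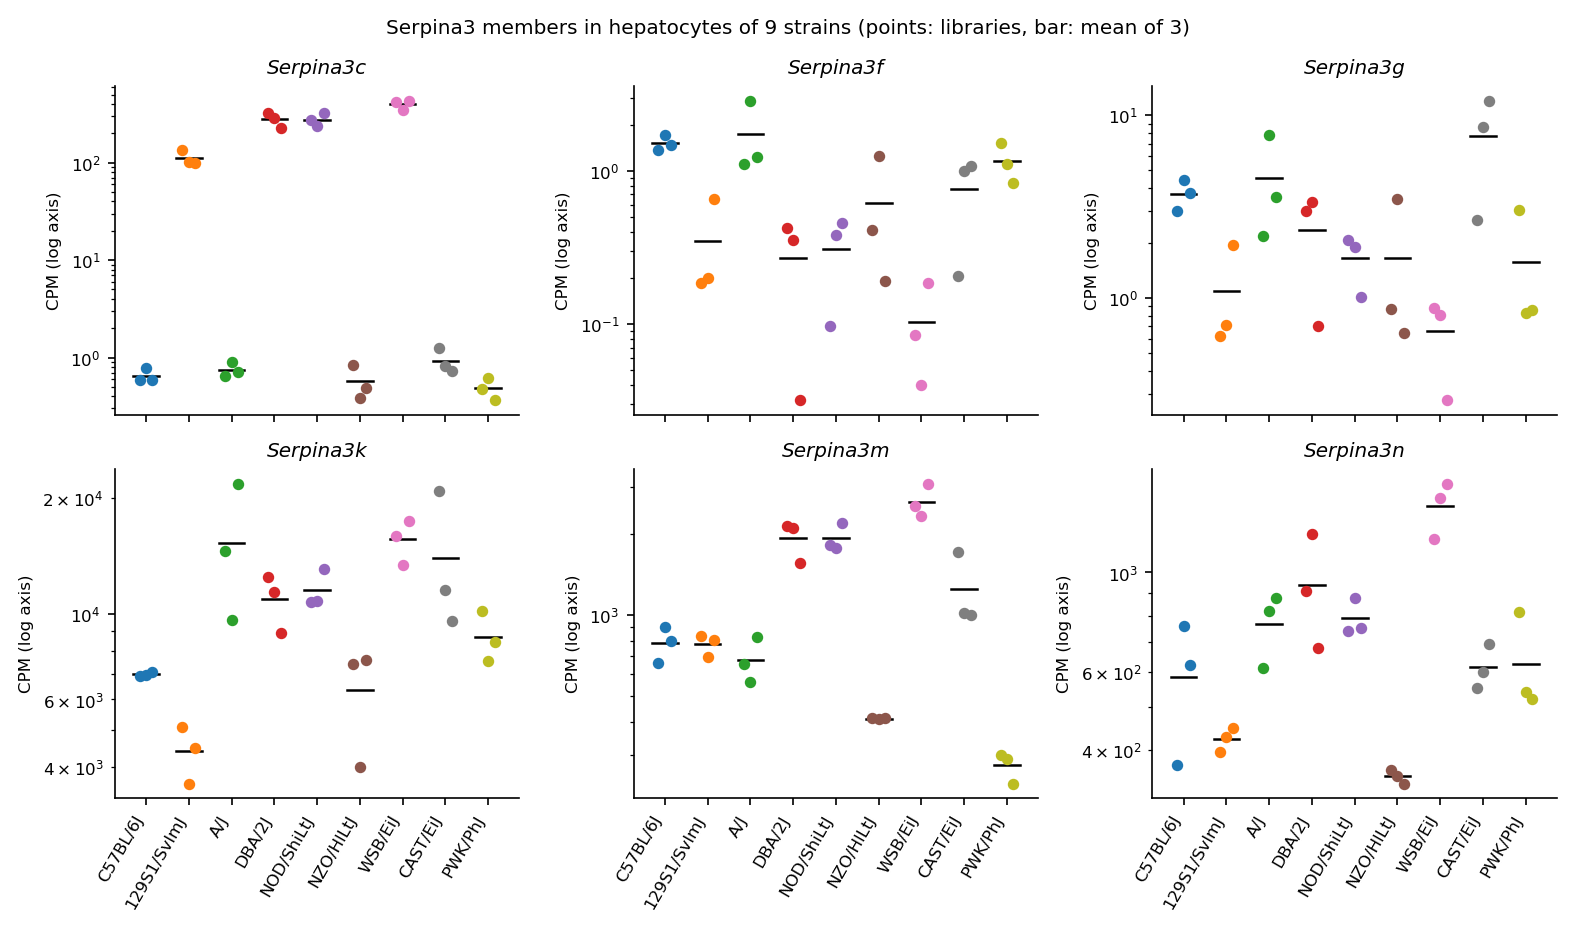
CPM of each member (log axis, a separate scale per panel) in the 3 libraries of each strain, with the strain mean as a bar. Serpina3c falls into levels of about 100 CPM or more in 4 strains and near or under 1 CPM in the other 5, while Serpina3k is at 3634 CPM or more in every library.

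Serpina3k was the most abundant member in every library. Its 3 libraries were at 6908, 6928 and 7084 CPM in C57BL/6J, at 3634, 4483 and 5090 CPM in 129S1/SvImJ, and at 13385, 15954 and 17416 CPM in WSB/EiJ. In A/J they were at 9640, 14541 and 21645 CPM, in CAST/EiJ at 9564, 11521 and 20754 CPM, in DBA/2J at 8896, 11400 and 12429 CPM, and in NOD/ShiLtJ at 10751, 10814 and 13031 CPM. In NZO/HlLtJ they were at 4019, 7403 and 7605 CPM, and in PWK/PhJ at 7535, 8446 and 10174 CPM. The highest libraries of A/J and CAST/EiJ were the highest of all 27, while the lowest library of each lay under those of NOD/ShiLtJ. Between neighbouring strains in the order of means, libraries overlapped in 7 of 8 pairs; the gap was between PWK/PhJ and C57BL/6J. Per kilobase of its longest transcript Serpina3k was at 7577 ± 992 CPM (SD, n = 3) in WSB/EiJ and 2140 ± 355 in 129S1/SvImJ, above the other members in both.

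Against C57BL/6J, Serpina3k rose in WSB/EiJ by a log2 fold change of 1.16 ± 0.29 (SE; edgeR adjusted p = 0.00727), in A/J by 1.13 ± 0.29 (adjusted p = 0.014) and in CAST/EiJ by 1.00 ± 0.29 (adjusted p = 0.00884). The A/J call was lost without A/J replicate 3 (log2 fold change 0.80, adjusted p = 0.123), without C57BL/6J replicate 2 (adjusted p = 0.052), and in a fit of only the 6 libraries (adjusted p = 0.0578). The CAST/EiJ call was lost without CAST/EiJ replicate 1 (0.60, adjusted p = 0.118). In 129S1/SvImJ the log2 fold change was -0.66 ± 0.29 (adjusted p = 0.1); all its libraries lay under those of C57BL/6J, and a fit of only the 6 libraries passed the test (adjusted p = 0.0469). In NOD/ShiLtJ it was 0.73 ± 0.29 (adjusted p = 0.0896), passed by DESeq2 (adjusted p = 0.0498) and by the fit of 6 libraries (adjusted p = 0.0169). Hepatocyte markers also differed by strain: their summed mean was 267020 CPM in A/J, 222029 in WSB/EiJ, 162911 in C57BL/6J, 158179 in DBA/2J, 158007 in PWK/PhJ, 131148 in NOD/ShiLtJ, 129645 in 129S1/SvImJ, 115239 in NZO/HlLtJ and 111800 in CAST/EiJ. By this sum A/J and WSB/EiJ were highest and CAST/EiJ lowest. Of the 10 markers, 1 rose and 0 fell in A/J (beside 7.84% of all genes called in either direction) and 1 rose and 1 fell in WSB/EiJ (13.6%). In NZO/HlLtJ, where Serpina3m and Serpina3n were called lower, 0 rose and 5 fell (29.3%), and in CAST/EiJ 1 rose and 4 fell (38%). The part of hepatocyte content in the results was not tested.

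Serpina3m, the nearest copy of Serpina3k by sequence, differed between strains more than Serpina3k did in span. It was at 2330, 2544 and 3070 CPM in WSB/EiJ, at 1568, 2118 and 2147 CPM in DBA/2J, and at 1775, 1826 and 2199 CPM in NOD/ShiLtJ. It was at 998, 1017 and 1723 CPM in CAST/EiJ, at 663, 798 and 898 CPM in C57BL/6J, at 695, 807 and 831 CPM in 129S1/SvImJ, and at 561, 655 and 828 CPM in A/J. The lowest levels were 408, 412 and 412 CPM in NZO/HlLtJ and 235, 291 and 301 CPM in PWK/PhJ. Libraries of NZO/HlLtJ lay under all libraries of the other strains except PWK/PhJ, whose libraries lay lower still. Neighbouring strains overlapped in 3 of 8 pairs, namely DBA/2J with NOD/ShiLtJ, C57BL/6J with 129S1/SvImJ, and 129S1/SvImJ with A/J.

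Serpina3m passed the test against C57BL/6J in 6 of 8 strains. It rose in WSB/EiJ by a log2 fold change of 1.75 ± 0.21 (SE; edgeR adjusted p = 9.24e-07), in DBA/2J by 1.31 ± 0.21 (adjusted p = 7.33e-05), in NOD/ShiLtJ by 1.30 ± 0.21 (adjusted p = 7.52e-05) and in CAST/EiJ by 0.66 ± 0.20 (adjusted p = 0.0125). It fell in PWK/PhJ, with -1.51 ± 0.21 (adjusted p = 5.12e-06), and in NZO/HlLtJ, with -0.94 ± 0.20 (adjusted p = 0.00177). The CAST/EiJ call was lost without CAST/EiJ replicate 1 (0.36, adjusted p = 0.172), without C57BL/6J replicate 1 (adjusted p = 0.0537) and in a fit of only the 6 libraries (adjusted p = 0.0543). The other 5 calls held with each library left out in turn. Since Serpina3m and Serpina3k share a first exon and 9.21% of 75-base stretches, part of either level can be reads of the other.

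The balance of these copies differed between strains. Serpina3m counts were 17.8% ± 1.41 (SD, n = 3) of Serpina3k counts in 129S1/SvImJ, 17.8% ± 0.674 in DBA/2J, 17% ± 0.914 in WSB/EiJ and 16.8% ± 0.302 in NOD/ShiLtJ. The same ratio was 11.3% ± 1.68 in C57BL/6J, 9.19% ± 1.11 in CAST/EiJ, 7.04% ± 2.68 in NZO/HlLtJ, 4.72% ± 1.01 in A/J and 3.20% ± 0.579 in PWK/PhJ. The lowest library of the first 4 strains was at 15.9% and the highest of the other 5 at 13.0%, so these sets of libraries did not overlap. The 4 strains with the higher ratio were also those with high Serpina3c. Ratios are given as a description, with no test.

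Serpina3c, the member on the minus strand, was present at either of 2 very different levels. Its libraries were at 350, 417 and 430 CPM in WSB/EiJ, at 228, 288 and 324 CPM in DBA/2J, at 236, 276 and 320 CPM in NOD/ShiLtJ, and at 98.3, 101 and 136 CPM in 129S1/SvImJ. They were at 0.722, 0.815 and 1.24 CPM in CAST/EiJ, at 0.639, 0.711 and 0.889 CPM in A/J, and at 0.581, 0.589 and 0.78 CPM in C57BL/6J. They were at 0.38, 0.481 and 0.841 CPM in NZO/HlLtJ, and at 0.365, 0.479 and 0.619 CPM in PWK/PhJ. In counts, the low strains held 11 to 42 per library and the high strains 3016 to 9896. No library lay between 1.24 and 98.3 CPM.

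Within the high strains the order of means was WSB/EiJ, DBA/2J, NOD/ShiLtJ and 129S1/SvImJ, and only DBA/2J and NOD/ShiLtJ overlapped as neighbours. The ratio of means between 129S1/SvImJ and the next strain, CAST/EiJ, was 121. Among the 5 low strains each neighbouring pair overlapped. Against C57BL/6J the log2 fold change was 9.26 ± 0.29 (SE; edgeR adjusted p = 4.42e-17) in WSB/EiJ, 8.75 ± 0.29 (adjusted p = 1.78e-16) in DBA/2J, 8.73 ± 0.29 (adjusted p = 8.75e-17) in NOD/ShiLtJ and 7.42 ± 0.28 (adjusted p = 1.35e-15) in 129S1/SvImJ. In the other 4 strains it lay between -0.41 ± 0.33 (PWK/PhJ, adjusted p = 0.391) and 0.54 ± 0.30 (CAST/EiJ, adjusted p = 0.153). The 4 calls held in all 34 alternatives run.

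In the 4 high strains Serpina3c kept a nearly fixed ratio to Serpina3m: its counts were 14.4% ± 2.11 (SD, n = 3) of those of Serpina3m in 129S1/SvImJ, 14.4% ± 0.762 in DBA/2J, 14.3% ± 0.935 in NOD/ShiLtJ and 15.2% ± 1.19 in WSB/EiJ. In the 5 low strains the ratio was between 0.0749% ± 0.0046 (CAST/EiJ) and 0.176% ± 0.032 (PWK/PhJ). Serpina3c and Serpina3m share 0.33% of the 75-base stretches of Serpina3c. Over the 27 libraries, which share their strain in sets of 3, Pearson's r between the log2 CPM of these genes was 0.78 and Spearman's rho 0.88; without the 2 libraries farthest from the median of Serpina3c, r was 0.74. The groups of high and low libraries carry much of a pooled r, and within strains, after each strain's mean was taken off, it was 0.56.

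The 250 bases before the start of Serpina3c and of Serpina3n are shown because they are near copies while the levels of these genes differ by strain in different ways. They are from RefSeq (GRCm38.p6, the C57BL/6J sequence), 5′ to 3′ on the strand of the gene. Capitals mark bases that differ or have no partner base, in 24 of 253 aligned columns with end gaps included.
Serpina3c (chr12:104153873-104154122, - strand): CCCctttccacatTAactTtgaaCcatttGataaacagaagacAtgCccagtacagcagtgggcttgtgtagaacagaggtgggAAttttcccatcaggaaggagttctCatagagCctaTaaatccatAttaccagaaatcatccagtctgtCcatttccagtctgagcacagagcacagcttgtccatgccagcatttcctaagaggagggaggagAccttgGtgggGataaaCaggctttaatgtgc
Serpina3n (chr12:104406458-104406707, + strand): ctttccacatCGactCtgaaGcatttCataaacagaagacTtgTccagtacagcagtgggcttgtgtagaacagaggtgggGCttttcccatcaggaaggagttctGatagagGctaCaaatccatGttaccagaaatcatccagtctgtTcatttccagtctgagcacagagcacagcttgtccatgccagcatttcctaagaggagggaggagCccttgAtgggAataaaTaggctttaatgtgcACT

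These stretches were 90.5% identical over the aligned columns. Over bases aligned to a base, with free ends, 229 of 247 were identical (92.7%). A match to the C/EBP letters TTNNGNAA, read on the other strand as TTTCCTAA, stood at -53 to -46 in Serpina3c and at -56 to -49 in Serpina3n, which held another at -227 to -220; 36.8% of all 32851 promoter stretches hold this motif on either strand. Serpina3c held TATAAA at -132 to -127 (12.4% of stretches hold it) and the letters ATTAAC, the other strand of the HNF1 letters GTTAAT, at -239 to -234 (6.4%). Serpina3n held GGCTTTTCC, a match to the NF-kB letters GGNNTTTCC, at -170 to -162 (4.9%). The matches are letters in the C57BL/6J sequence only, and the sequences of the other strains were not used here. The table of promoters held Serpina3c, Serpina3f, Serpina3g and Serpina3n, 4 of the 6 members.

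Serpina3n was at 1186, 1467 and 1575 CPM in WSB/EiJ, at 678, 911 and 1218 CPM in DBA/2J, at 740, 752 and 879 CPM in NOD/ShiLtJ, and at 610, 818 and 877 CPM in A/J. It was at 522, 539 and 814 CPM in PWK/PhJ, at 552, 598 and 692 CPM in CAST/EiJ, and at 370, 621 and 760 CPM in C57BL/6J. In 129S1/SvImJ it was at 396, 428 and 448 CPM, and in NZO/HlLtJ at 337, 351 and 362 CPM. Neighbouring strains overlapped in 7 of 8 pairs, and the libraries of NZO/HlLtJ lay under all those of 129S1/SvImJ. The libraries of C57BL/6J were spread, with the lowest, at 370 CPM, between the ranges of NZO/HlLtJ and 129S1/SvImJ. The libraries of WSB/EiJ lay above all others but for 1 pair, its lowest at 1186 CPM and the highest of DBA/2J at 1218 CPM.

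Against C57BL/6J, Serpina3n rose in WSB/EiJ by a log2 fold change of 1.27 ± 0.23 (SE; edgeR adjusted p = 0.000354) and fell in NZO/HlLtJ, with -0.74 ± 0.23 (adjusted p = 0.0201). Without WSB/EiJ replicate 4, the library high in Saa1 and Lcn2, the first value was 1.19 (adjusted p = 0.00246). The NZO/HlLtJ call was lost without C57BL/6J replicate 2 (-0.50, adjusted p = 0.146), without C57BL/6J replicate 4 (adjusted p = 0.0716) and without any 1 of the NZO/HlLtJ libraries (adjusted p 0.0517 to 0.0597). In DBA/2J the log2 fold change was 0.68 ± 0.23, with an adjusted p of 0.0685; it was called by DESeq2 (adjusted p = 0.0419) and without C57BL/6J replicate 2 (0.0231), DBA/2J replicate 4 (0.0242) or PWK/PhJ replicate 1 (0.0462).

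Serpina3g, the Spi2A gene, was low in all strains and varied much between libraries of 1 strain. It was at 2.66, 8.61 and 12 CPM in CAST/EiJ, at 2.19, 3.59 and 7.77 CPM in A/J, at 3.01, 3.74 and 4.43 CPM in C57BL/6J, and at 0.701, 3 and 3.36 CPM in DBA/2J. It was at 0.642, 0.866 and 3.49 CPM in NZO/HlLtJ, at 1.01, 1.91 and 2.08 CPM in NOD/ShiLtJ, and at 0.825, 0.863 and 3.03 CPM in PWK/PhJ. In 129S1/SvImJ it was at 0.62, 0.715 and 1.96 CPM, and in WSB/EiJ at 0.276, 0.807 and 0.885 CPM. Each pair of neighbouring strains overlapped. In counts a library held between 6 and 285.

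Against C57BL/6J, Serpina3g passed the test in WSB/EiJ alone of the 8 strains, where it fell with a log2 fold change of -2.48 ± 0.75 (SE; edgeR adjusted p = 0.0267). The call was lost without any 1 of the WSB/EiJ libraries (adjusted p 0.0508 to 0.125), without C57BL/6J replicate 2 (adjusted p = 0.0671) and without C57BL/6J replicate 4 (adjusted p = 0.0523). In CAST/EiJ, the strain with the highest mean, it was 1.05 ± 0.65 (adjusted p = 0.207).

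Serpina3f was the lowest of the 6 members per kilobase in C57BL/6J except for Serpina3c, at 0.677 ± 0.0817 CPM per kilobase (SD, n = 3). Its libraries were at 1.1, 1.22 and 2.85 CPM in A/J, at 1.37, 1.47 and 1.72 CPM in C57BL/6J, at 0.83, 1.1 and 1.52 CPM in PWK/PhJ, and at 0.207, 0.997 and 1.08 CPM in CAST/EiJ. They were at 0.192, 0.408 and 1.24 CPM in NZO/HlLtJ, at 0.186, 0.2 and 0.652 CPM in 129S1/SvImJ, and at 0.0974, 0.381 and 0.453 CPM in NOD/ShiLtJ. In DBA/2J they were at 0.0319, 0.352 and 0.422 CPM, and in WSB/EiJ at 0.0403, 0.0843 and 0.184 CPM, which is 1 to 4 counts. Each pair of neighbouring strains overlapped, and the counts were 1 to 61 per library.

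Serpina3f fell against C57BL/6J in WSB/EiJ with a log2 fold change of -3.86 ± 0.87 (SE; edgeR adjusted p = 0.00295), in DBA/2J with -2.55 ± 0.77 (adjusted p = 0.0375), in NOD/ShiLtJ with -2.28 ± 0.74 (adjusted p = 0.0374) and in 129S1/SvImJ with -2.13 ± 0.73 (adjusted p = 0.0395). The WSB/EiJ call held in all 34 alternatives. The other 3 were lost without some single libraries: without C57BL/6J replicate 2 the adjusted p was 0.0872 for DBA/2J, 0.089 for NOD/ShiLtJ and 0.0983 for 129S1/SvImJ, and without C57BL/6J replicate 4 it was 0.0728, 0.0811 and 0.091. They were also lost without DBA/2J replicate 3 or 4, without C57BL/6J replicate 1 (for DBA/2J), without any 1 of the NOD/ShiLtJ libraries, and without 129S1/SvImJ replicate 1 or 2, with adjusted p between 0.0565 and 0.172. These 4 strains are those in which Serpina3c was high. In bulk libraries, fewer cells of a type and less RNA per cell cannot be told apart.

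Serpina3f and Serpina3g varied with each other from library to library: r over the 27 libraries was 0.67 (rho 0.72), and within strains 0.71. The stretches before their starts are shown for this reason, from RefSeq (GRCm38.p6), 5′ to 3′, with capitals for matches to the motifs searched on both strands (STAT TTCNNNGAA, C/EBP TTNNGNAA, NF-kB GGNNTTTCC, interferon element GAAANNGAA, HNF1 letters GTTAAT, and TATAAA); matches that overlap run together. Serpina3f is shown at the first of its 2 starts in the table.
Serpina3f (chr12:104214294-104214543, + strand): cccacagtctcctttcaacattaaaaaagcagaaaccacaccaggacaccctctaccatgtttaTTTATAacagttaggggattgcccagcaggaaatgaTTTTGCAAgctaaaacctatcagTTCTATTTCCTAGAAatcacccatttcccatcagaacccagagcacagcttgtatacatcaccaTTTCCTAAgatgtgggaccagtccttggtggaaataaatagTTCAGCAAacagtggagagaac
Serpina3g (chr12:104235897-104236146, + strand): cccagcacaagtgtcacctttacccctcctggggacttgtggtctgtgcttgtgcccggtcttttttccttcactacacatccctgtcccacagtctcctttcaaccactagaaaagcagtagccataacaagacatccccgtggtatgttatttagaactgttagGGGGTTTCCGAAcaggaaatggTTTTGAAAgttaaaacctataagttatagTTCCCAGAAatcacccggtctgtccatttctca

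A STAT match stood at -121 to -113 in Serpina3f and at -33 to -25 in Serpina3g, and 7.0% of all promoter stretches hold one. Serpina3g also held an NF-kB match at -84 to -76 (4.9% of stretches). Serpina3f held a match to the interferon element, on the other strand, at -127 to -119, where it overlaps the STAT match (7.1%). The windows are offset from each other; where they overlap in an alignment with free ends, 126 of 152 aligned bases were identical (82.9%). Serpina3i, not a member, also held a STAT match, at -102 to -94, and an NF-kB match, at -153 to -145. Counted in the same way, its stretch was 80.8% identical to that of Serpina3f and 80.4% to that of Serpina3g.

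Markers of other cells were set beside the low members. Summed over 10 genes, Kupffer cell markers were at 236 ± 34.3 CPM (SD, n = 3; range 198 to 264) in C57BL/6J, 233 ± 157 (142 to 414) in PWK/PhJ and 200 ± 75.3 (131 to 281) in A/J. These were also the 3 strains with the highest mean of Serpina3f. The sum was 115 ± 76.9 (33.4 to 186) in DBA/2J, 103 ± 32.0 (71.9 to 136) in WSB/EiJ, 74.7 ± 5.25 (69.5 to 80) in NOD/ShiLtJ, 65.8 ± 28.7 (34.1 to 90.2) in NZO/HlLtJ, 62.5 ± 5.86 (56.8 to 68.5) in CAST/EiJ and 57.3 ± 24.8 (40.7 to 85.7) in 129S1/SvImJ. All 10 Kupffer cell markers were tested and had a strain effect, beside 74.2% of all genes tested, and none was at 0 in any strain. Against C57BL/6J none rose, and 10 of 10 fell in 129S1/SvImJ (beside 20.9% of all genes called in either direction) and in CAST/EiJ (38%), 9 in NZO/HlLtJ (29.3%), 8 in NOD/ShiLtJ (15.9%), 3 in WSB/EiJ (13.6%), 1 in PWK/PhJ (26.2%) and 0 in A/J (7.84%) and DBA/2J (9.06%). In NZO/HlLtJ the log2 fold change was -1.29 ± 0.69 (SE) for Serpina3f (edgeR adjusted p = 0.157) and -1.14 ± 0.67 for Serpina3g (adjusted p = 0.196), neither of them called. Without NZO/HlLtJ replicate 2 both were called, at adjusted p of 0.0462 and 0.038. Over the 27 libraries r with the log2 of this sum was 0.65 for Serpina3f and 0.44 for Serpina3g, and 0.55 and 0.58 without the 2 libraries farthest from each gene's median. With lymphocyte markers r was 0.55 and 0.32, and with liver endothelial markers 0.48 and 0.31. Of 10 endothelial markers 8 fell in NZO/HlLtJ, 2 in 129S1/SvImJ, 1 in WSB/EiJ and 1 in CAST/EiJ, and 1 rose in PWK/PhJ. In DBA/2J, where Serpina3f was called lower, no Kupffer cell or endothelial marker was called.

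In CAST/EiJ, Serpina3g had its highest mean while the Kupffer cell sum was 62.5 CPM. In DBA/2J replicate 4, both were low, with Serpina3f at 0.0319 CPM, Serpina3g at 0.701 CPM and the sum at 33.4 CPM. Lymphocyte markers summed to between 0.861 CPM (DBA/2J replicate 4) and 12.1 CPM (PWK/PhJ), with Cd3e, Cd3d, Trbc2 and Cd8a at 0 in all CAST/EiJ libraries and Trbc2, Cd8a and Klrb1c at 0 in all 129S1/SvImJ libraries. The part of these cells in the levels of Serpina3f and Serpina3g was not tested.

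**Figure D2:**
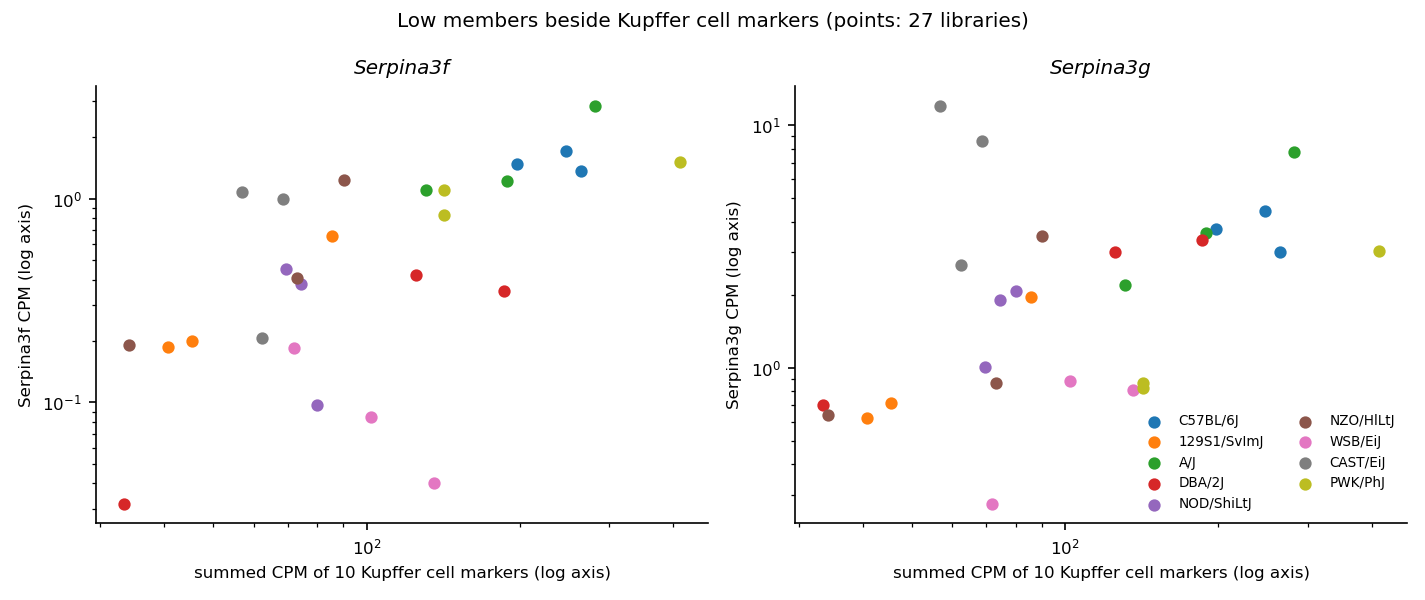
Serpina3f (left) and Serpina3g (right) in CPM against the summed CPM of 10 Kupffer cell markers, both on log axes; points are the 27 libraries, coloured by strain. The C57BL/6J, A/J and PWK/PhJ libraries lie at upper right for Serpina3f (r = 0.65 over all libraries), and 2 CAST/EiJ libraries with Serpina3g at 8.61 and 12 CPM have marker sums under 70.

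Set side by side by strain, and sharing the 3 libraries of C57BL/6J, the comparisons called different numbers of members. In WSB/EiJ 6 of 6 members were called, 4 higher and 2 lower, beside 13.6% of all genes tested; without replicate 4 it was 5, with Serpina3g lost. In DBA/2J it was 3 (2 higher), beside 9.06%, in NOD/ShiLtJ 3 (2 higher), beside 15.9%, and in 129S1/SvImJ 2 (1 higher), beside 20.9%. In NZO/HlLtJ 2 members were called, both lower, beside 29.3%, and in CAST/EiJ 2, both higher, beside 38%. A/J had 1, higher, beside 7.84%, and PWK/PhJ 1, lower, beside 26.2%. Over all 48 member and strain differences, 20 were called, 12 higher and 8 lower.

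The median log2 fold change of the 6 members was 1.21 in WSB/EiJ, 0.67 in DBA/2J, 0.60 in CAST/EiJ, 0.58 in NOD/ShiLtJ, 0.24 in A/J, -0.41 in PWK/PhJ, -0.56 in 129S1/SvImJ and -0.84 in NZO/HlLtJ. Over all genes tested it lay between -0.02 and 0.01. In WSB/EiJ the members that rose were Serpina3c, Serpina3k, Serpina3m and Serpina3n, and those that fell were Serpina3f and Serpina3g, so the family did not move as 1 block.

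**Figure D3:**
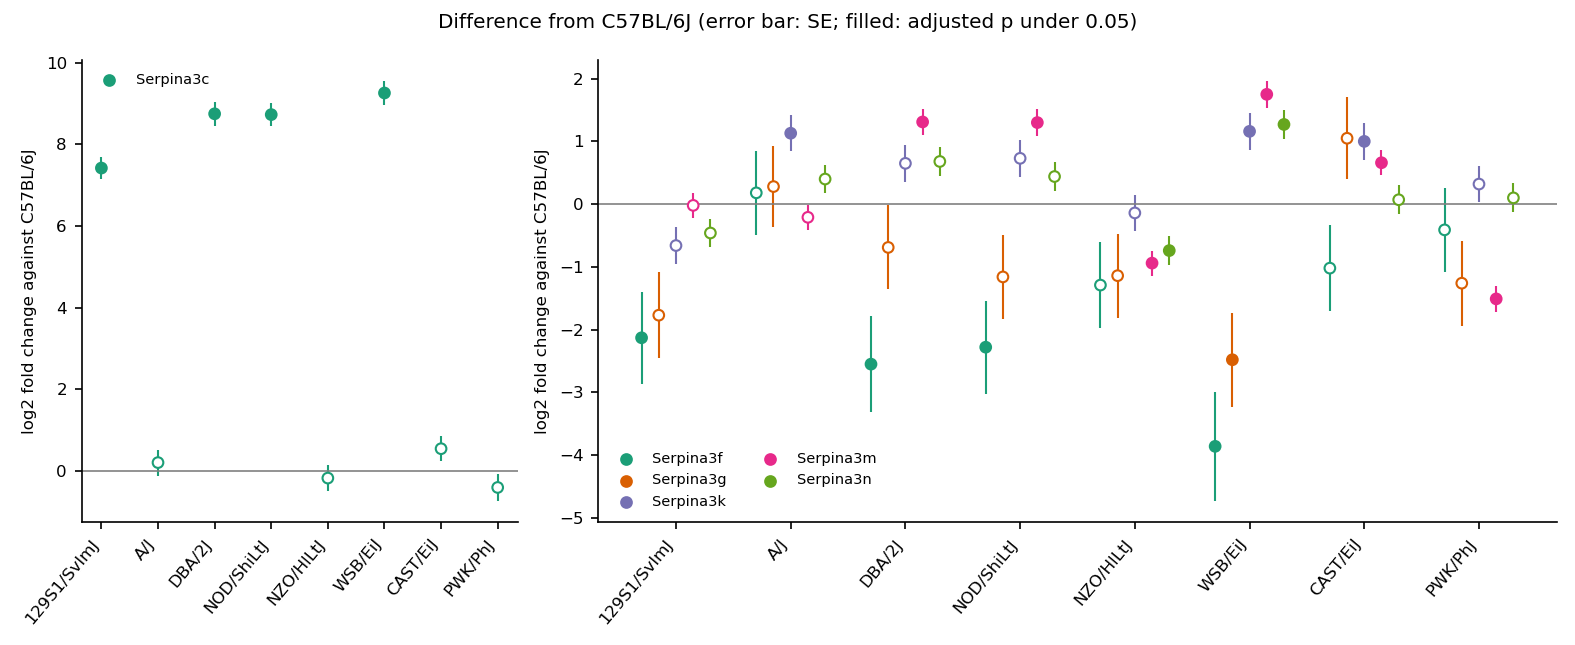
Log2 fold change of each member against C57BL/6J by edgeR, with the standard error as a bar; filled points have an adjusted p under 0.05. Serpina3c (left, own scale) lies at 7.42 to 9.26 in 4 strains, and the other members (right) between -3.86 and 1.75.

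Summed over the 6 members, the family took 1.82% ± 0.737 (SD, n = 3) of library counts in CAST/EiJ, 1.62% ± 0.228 in WSB/EiJ, 1.55% ± 0.215 in NOD/ShiLtJ, 1.35% ± 0.145 in DBA/2J and 1.34% ± 0.347 in A/J. It took 0.974% ± 0.0704 in PWK/PhJ, 0.851% ± 0.229 in NZO/HlLtJ, 0.759% ± 0.0461 in C57BL/6J and 0.653% ± 0.101 in 129S1/SvImJ. The libraries of CAST/EiJ ran from 1.28% to 2.66%, which takes in those of WSB/EiJ (1.37% to 1.82%). On the CPM scale, whose library totals are scaled by TMM factors, the order differs: WSB/EiJ was highest, with a summed 20042 ± 2480 CPM, followed by A/J with 16732 ± 6214 and CAST/EiJ with 15816 ± 6320, and 129S1/SvImJ lowest, with 5717 ± 804. The sum does not change when reads are divided otherwise among the members. Of the sum, Serpina3k held 83.6% ± 5.97 over the 27 libraries (SD; 74.8% to 92.7%), Serpina3m 9.41% ± 4.21, Serpina3n 6.08% ± 1.67 and Serpina3c 0.876% ± 0.994. Serpina3g held 0.0261% ± 0.0263 and Serpina3f 0.00781% ± 0.00777. With counts divided by transcript length the share of Serpina3k was 81.9% and that of Serpina3m 11.4%.

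Serpina3k had 90.7% ± 2.87 of the sum in A/J and 90.6% ± 0.976 in PWK/PhJ, and 76.8% ± 2.04 in 129S1/SvImJ, 77.6% ± 1.48 in DBA/2J and 77.7% ± 1.53 in WSB/EiJ. Serpina3c had between 1.90% ± 0.163 (NOD/ShiLtJ) and 2.00% ± 0.0807 (WSB/EiJ) in the 4 strains where it was high. In 129S1/SvImJ, which had the lowest family total on both scales, Serpina3c made up 1.96% ± 0.24 of it.

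**Figure D4:**
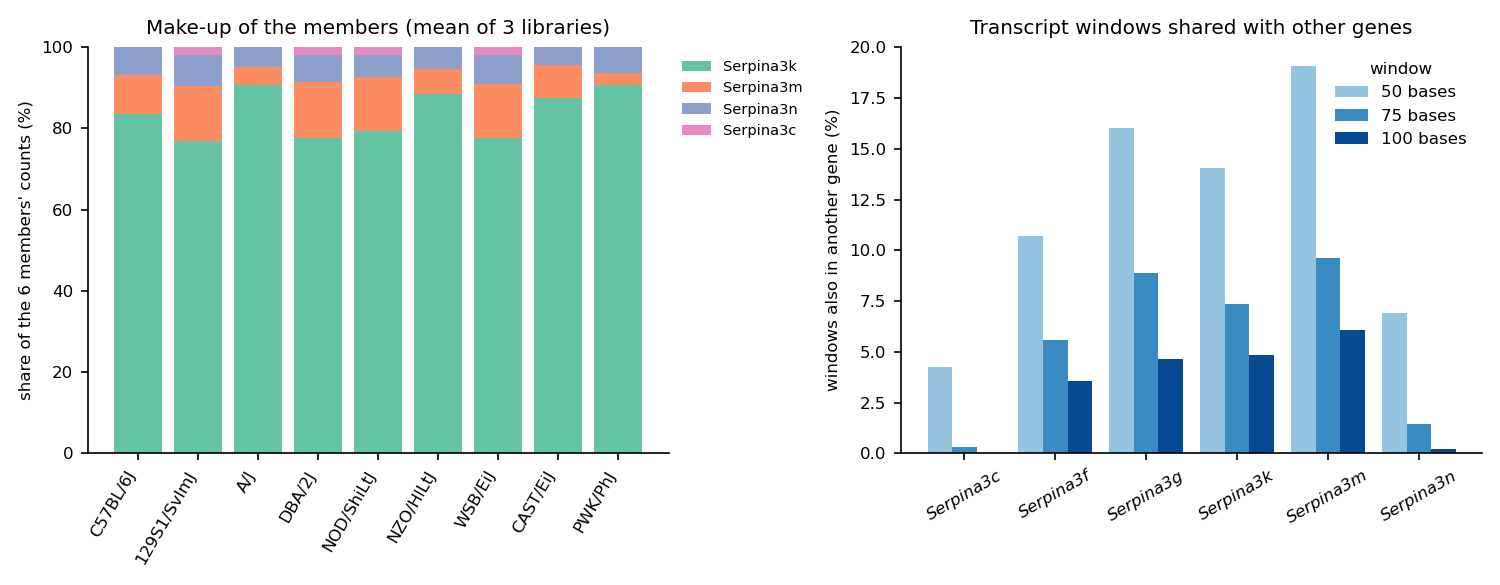
Left, the share of the 6 members' counts held by Serpina3k, Serpina3m, Serpina3n and Serpina3c (mean of 3 libraries per strain, in percent; the other 2 are too small to see). Right, the percent of 50, 75 and 100-base stretches of each member's transcript that also occur in another gene, from 0% of 100-base stretches in Serpina3c to 19.1% of 50-base stretches in Serpina3m.

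The cluster held 8 other Serpina3 genes and pseudogenes. Serpina3e-ps, a pseudogene next to Serpina3d-ps between Serpina3c and Serpina3f, was named after its values were seen and by the rule on like genes. It was at 32.6 ± 4.22 CPM (SD, n = 3) in WSB/EiJ, 21.8 ± 6.05 in DBA/2J, 18.6 ± 0.967 in NOD/ShiLtJ, 11.3 ± 0.285 in CAST/EiJ and 9.51 ± 1.5 in 129S1/SvImJ, and held 0 to 3 counts in each library of the other 4 strains. CAST/EiJ was thus high in Serpina3e-ps and low in Serpina3c, while the other high strains were high in both. Its counts were not whole in 23 of 27 libraries.

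Serpina3a, also named after its values were seen, was at 2.91, 2.1 and 5.52 CPM in the WSB/EiJ libraries and at 0.325, 0.416 and 1.08 in those of NOD/ShiLtJ, with a mean of 0.0137 ± 0.0237 in C57BL/6J. Serpina3h, annotated as a transcribed pseudogene, was at 2.19, 1.98 and 1.2 CPM in WSB/EiJ, with 0 counts in NZO/HlLtJ. In NOD/ShiLtJ it was at 1.01, 2.91 and 1.32, and without WSB/EiJ replicate 2 NOD/ShiLtJ had the highest mean. Serpina3i reached 0.493 ± 0.119 CPM in WSB/EiJ and Serpina3b 0.89 ± 0.205 CPM in PWK/PhJ. Serpina3j and Serpina3l-ps had at most 1 count in a library, and Serpina3d-ps had 0 in all 27. Of the list of other Serpina3 genes, 4 of 4 tested had a strain effect (edgeR adjusted p 9.64e-08 for Serpina3h, 1.08e-05 for Serpina3a, 6.01e-05 for Serpina3b and 0.00152 for Serpina3i), beside 74.2% of all genes.

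**Figure D5:**
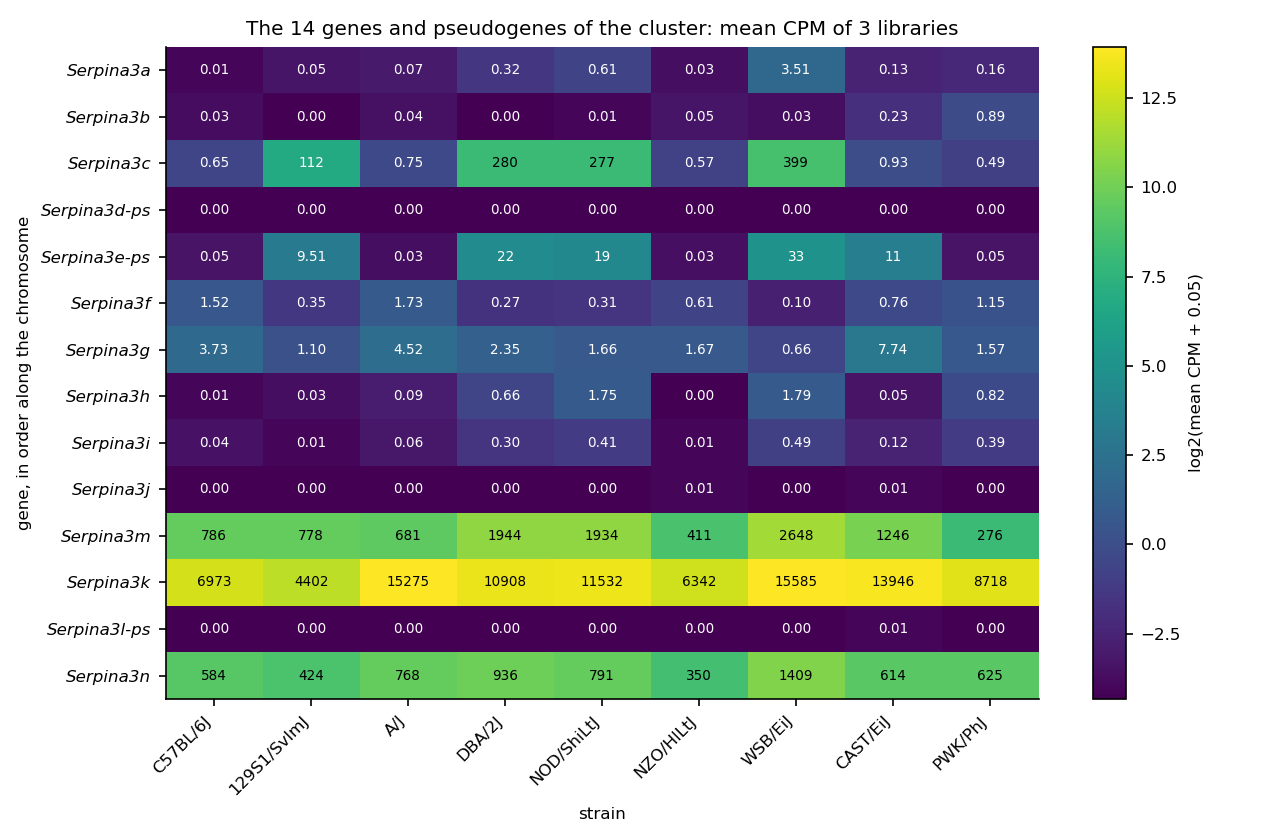
Mean CPM of 3 libraries for the 14 Serpina3 genes and pseudogenes in their order along chromosome 12 (rows) in the 9 strains (columns); colour is log2(mean CPM + 0.05). Serpina3c and Serpina3e-ps change by strain from under 1 CPM to 399 and 32.6 CPM, while the means of Serpina3k, Serpina3m and Serpina3n are at 276 CPM or more in every strain.

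The genes most like each member over the 27 libraries are given by Pearson's r of log2 CPM, among 10647 named genes averaging at least 1 CPM; libraries of a strain share their genotype, so r mostly follows strain means. For Serpina3c they were Serpina11 (r = 0.904), another clade A serpin on chromosome 12, Serpina3e-ps (0.852) and Cpm (0.791), a carboxypeptidase gene. Serpina11 was highest in NOD/ShiLtJ at 404 ± 28.2 CPM and lowest in NZO/HlLtJ at 56.7 ± 11.9 CPM (SD, n = 3). For Serpina3m they were Golm1 (0.855), Slc22a29 (0.850) and Serpina3e-ps (0.836). For Serpina3k they were C1s2 (0.820), which encodes a complement C1s protein, Asb1 (0.802) and Serpina1b (0.781), an alpha-1-antitrypsin gene of chromosome 12.

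For Serpina3n the most like genes were Alg3 (0.883), a mannosyltransferase gene of N-glycan assembly in the endoplasmic reticulum, Sdf2 (0.876) and Asgr2 (0.872), a subunit of the asialoglycoprotein receptor. For Serpina3f they included Cd300e (0.827), a receptor of myeloid cells, and Gbp4 (0.748), a guanylate-binding protein induced by interferon. For Serpina3g they were Nenf (0.740), Fgl1 (0.724) and Manba (0.724). Without the 2 libraries farthest from its median, r of Serpina3f was 0.788 with Cd300e and 0.671 with Gbp4.

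Among the members, the highest r was that of Serpina3c with Serpina3m (0.78), then those of Serpina3k with Serpina3n (0.69), Serpina3m with Serpina3n (0.68) and Serpina3f with Serpina3g (0.67). Serpina3c and Serpina3f had an r of -0.74, which over the 9 strain means was -0.88 and within strains -0.06. Serpina3k and Serpina3m, which share stretches of sequence, had 0.52 over libraries and 0.76 within strains. Within strains, Serpina3k and Serpina3n had 0.07, against 0.82 over the 9 strain means.

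Lists of related genes were counted beside the members. Of 13 tested clade A serpins outside Serpina3, 12 had a strain effect, with a median span of strain means of 2.72 on the log2 scale; all genes tested had 0.94 and 74.2% called. Serpina6, which encodes the corticosteroid-binding globulin, ran from 379 ± 73.6 CPM (SD, n = 3) in NOD/ShiLtJ to 898 ± 100 in WSB/EiJ (edgeR adjusted p = 0.000718). Serpina10, which encodes an inhibitor of coagulation factor X, had means from 216 ± 36.4 in 129S1/SvImJ to 372 ± 42.1 in WSB/EiJ (adjusted p = 0.0109); without WSB/EiJ replicate 2 the highest was A/J, at 368.

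Of 20 acute phase genes all 20 had a strain effect, beside 74.2% of all genes tested. Their median span was 2.03, beside 0.94 over all genes tested. Hp, which encodes haptoglobin, had means from 1605 ± 462 CPM in 129S1/SvImJ to 6148 ± 4161 in WSB/EiJ (edgeR adjusted p = 0.000188). Its WSB/EiJ libraries were at 3266, 4261 and 10918 CPM, and without replicate 4 the mean there was 3764 CPM, below the 5191 CPM of PWK/PhJ. Saa1 was at 181 ± 265 CPM in WSB/EiJ and 7.13 ± 1.59 in 129S1/SvImJ (edgeR adjusted p = 0.016, and 0.155 without WSB/EiJ replicate 4). Saa2 was at 126 ± 187 and 2.65 ± 0.39 CPM in the same strains (adjusted p = 0.000736). Without that library WSB/EiJ was at 28.1 CPM for Saa1 and 17.4 for Saa2, and PWK/PhJ was highest, at 52.4 and 79.5. Saa3 was at 4.50 ± 1.39 and 0.539 ± 0.0985 (adjusted p = 4.71e-05). Orm2, an orosomucoid gene, ran from 13.2 ± 2.8 CPM in 129S1/SvImJ to 51.2 ± 41.4 in CAST/EiJ (adjusted p = 0.00171); without CAST/EiJ replicate 5, at 99 CPM, that strain was at 27.2 and C57BL/6J highest, at 48.7. Lcn2 ran from 0.379 ± 0.325 CPM in NZO/HlLtJ to 228 ± 297 in WSB/EiJ (adjusted p = 4.17e-09), where it was at 57.1 without replicate 4, still the highest. Against C57BL/6J, 3 of the 20 acute phase genes rose and 0 fell in WSB/EiJ, beside 13.6% of all genes called in either direction. In NZO/HlLtJ 1 rose and 9 fell (29.3% of all genes), in 129S1/SvImJ 1 and 8 (20.9%), in CAST/EiJ 0 and 7 (38%), and in PWK/PhJ 4 and 4 (26.2%). In A/J (7.84%), DBA/2J (9.06%) and NOD/ShiLtJ (15.9%) 1 rose and 1 fell. Serpina3n rose in WSB/EiJ and fell in NZO/HlLtJ; its log2 fold change was -0.46 ± 0.23 in 129S1/SvImJ (adjusted p = 0.15), 0.07 ± 0.23 in CAST/EiJ (0.827) and 0.10 ± 0.23 in PWK/PhJ (0.797).

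Of 16 genes of interleukin 6, glucocorticoid and NF-kB signalling, 10 had a strain effect, a share below the 74.2% of all genes tested, with a median span of 0.90, beside 0.94 over all genes tested. Stat3, the transcription factor downstream of interleukin 6, ran from 71.6 ± 7.28 CPM in NOD/ShiLtJ to 141 ± 30.5 in CAST/EiJ (adjusted p = 0.000264), and Cebpb from 8.71 ± 1.23 in DBA/2J to 45.3 ± 41.6 in 129S1/SvImJ (adjusted p = 0.00398). Without 129S1/SvImJ replicate 3, at 92.7 CPM, the Cebpb mean there was 21.6 and NOD/ShiLtJ was highest, at 29.6. Nr3c1, the glucocorticoid receptor gene, was at 57.9 ± 4.72 to 72.2 ± 5.98 CPM and did not pass (edgeR adjusted p = 0.18), nor did Socs3 (adjusted p = 0.0655), a feedback inhibitor of this pathway. Of 8 growth hormone signalling genes 5 were called, also a share below 74.2%, with a median span of 0.96, near that of all genes. Socs2, a growth hormone target, ran from 6.92 ± 3.39 CPM in PWK/PhJ to 30.7 ± 4.95 in NZO/HlLtJ (adjusted p = 0.00291), with A/J highest at 29.7 without NZO/HlLtJ replicate 3. Ghr, the receptor gene, was at 277 ± 44.5 CPM in CAST/EiJ and 521 ± 73.0 in A/J (adjusted p = 0.00414; C57BL/6J was highest, at 503, without A/J replicate 3), and Igf1 at 470 ± 44.7 in 129S1/SvImJ and 934 ± 185 in A/J (adjusted p = 0.0266). The Igf1 call was lost without any 1 of 4 libraries (adjusted p 0.0515 to 0.0781): CAST/EiJ replicate 4, 129S1/SvImJ replicate 2 or 3, and A/J replicate 3.

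Of 20 interferon response genes 19 had a strain effect, beside 74.2% of all genes tested. Their median span was 2.41, beside 0.94 over all genes tested. Irf1, an interferon-induced transcription factor gene, was at 13.1 ± 2.47 to 19.6 ± 2.68 CPM and did not pass (edgeR adjusted p = 0.235). Gbp2 ran from 0.724 ± 0.324 CPM in CAST/EiJ to 10.1 ± 11.1 in A/J (adjusted p = 0.000286), and Igtp from 21.7 ± 7.35 to 148 ± 124 in the same strains (adjusted p = 2.39e-05). Without A/J replicate 2 the A/J means were 3.74 CPM for Gbp2 and 77.3 for Igtp, and DBA/2J was highest, at 5.67 and 121. Against C57BL/6J, 15 of the 20 genes fell in CAST/EiJ (beside 38% of all genes called in either direction), where Serpina3g had its highest mean. In 129S1/SvImJ 13 fell (20.9% of all genes), where Serpina3f was called lower, and in WSB/EiJ 7 (13.6%), where Serpina3f and Serpina3g were both called lower. In PWK/PhJ 3 fell (26.2%) and in NOD/ShiLtJ 1 (15.9%), while none fell in A/J, DBA/2J and NZO/HlLtJ; 2 rose in NZO/HlLtJ and 1 in DBA/2J, and none elsewhere. In A/J replicate 2, Igtp was at 291 CPM and Gbp4 at 15.5 CPM, each the highest of the 27 libraries, and Serpina3f (2.85 CPM) was also highest there. Gbp4 was named for its likeness to Serpina3f over these same libraries. Serpina3g, at 7.77 CPM there, was below CAST/EiJ replicates 4 and 5 (8.61 and 12 CPM).

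Of 12 proteases that serpins of this clade can inhibit, 4 were tested and all 4 had a strain effect. Ctsb, which encodes cathepsin B, ran from 609 ± 55.3 CPM in NZO/HlLtJ to 1327 ± 405 in PWK/PhJ (adjusted p = 0.000242), with WSB/EiJ highest at 1287 without PWK/PhJ replicate 1. Ctss, which encodes cathepsin S and is known from macrophages, was at 2.84 ± 1.28 CPM in 129S1/SvImJ, 15.1 ± 8.28 in PWK/PhJ and 15 ± 2.91 in C57BL/6J (adjusted p = 0.00162); the PWK/PhJ mean rests on replicate 1, at 24.6 CPM, above the other libraries of that strain. In all, 74 of 85 tested genes of the 7 lists had a strain effect, which as a share lies above the 74.2% of all genes; no test of the lists was made.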

How the data were processed

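RNA-seq of hepatocytes was analysed from 27 libraries, 3 of each of 9 strains. Per the labels' protocols, polyadenylated RNA was selected for TruSeq RNA libraries, with no strand-specific step stated. The authors deposited estimated counts per Ensembl gene, not scaled to depth. The submitters' processing notes name FastQC 0.11.5, DESeq2, GRCm38 and mm10 with no role; the aligner, counter, annotation and read length are not given in the sources used here. Libraries are labelled as biological replicates without naming mice, so p-values measure the spread between these samples.

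Symbols came from GENCODE M21 (42462 of 43346 identifiers). Counts were rounded and tested in R 4.3.3 with edgeR 4.0.16 (filterByExpr by strain, TMM, glmQLFit, glmQLFTest on all 27 libraries). The same steps were run on counts simulated from this fit, with changes set in A/J only, for genes above 1 CPM. P-values were adjusted by Benjamini-Hochberg over 14482 genes and called under 0.05. Standard errors were derived from F. CPM uses TMM-scaled totals, and r was taken on log2 CPM (prior count 2). Pairs of libraries within strains differed beyond sampling noise (chi-square per degree of freedom 24.4 to 135). Alternatives were DESeq2 1.42.0, median-of-ratios size factors, no filter, a mean of at least 10 counts, a replicate block, fits of 6 libraries, unrounded counts, pseudocounts of 0.1 and 2, and leaving out each library. The members and lists were chosen with earlier results of these data known. Genes outside the family were named from a set list by role, and as the 3 most like each member (symbol, at least 1 CPM, no Gm or Rik names); Klkb1 of that list was not analysed here, and 2 genes that these rules name are not reported here. Sequences are from GENCODE M21 transcripts and RefSeq.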

Additional observations from a re-analysis of the deposited data

How the results depend on the processing

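Of the 20 member differences called against C57BL/6J, 12 stayed called in all 34 alternatives and 8 were lost in at least 1; none changed direction. All 6 members kept a strain effect in every alternative, with the count of listed genes at 71 to 79. The fit of only the 6 libraries of a comparison called 4 members in 129S1/SvImJ, 5 in NOD/ShiLtJ, 1 in CAST/EiJ and 0 in A/J (edgeR), where Serpina3k in A/J had an adjusted p of 0.0578; the cause was not tested. It gained Serpina3g and Serpina3k in both 129S1/SvImJ (0.0157, 0.0469) and NOD/ShiLtJ (0.0245, 0.0169). In 129S1/SvImJ Serpina3g was also called by DESeq2 (0.0392), with no filter (0.0222) and without 129S1/SvImJ replicate 3 (0.041), and Serpina3n without C57BL/6J replicate 1 (0.0217). DESeq2 called 1 in A/J and within 1.5 times the number of edgeR in each comparison. With single libraries left out, the number of members called was 1 to 3 in 129S1/SvImJ, 0 to 1 in A/J, 2 to 4 in DBA/2J, 2 to 3 in NOD/ShiLtJ, 1 to 3 in NZO/HlLtJ, 5 to 6 in WSB/EiJ, 0 to 2 in CAST/EiJ and 1 to 2 in PWK/PhJ; with a strain effect it was 6 to 6 members and 73 to 78 listed genes. Without PWK/PhJ replicate 1, 2 members were called in PWK/PhJ, Serpina3g (adjusted p = 0.0448) beside Serpina3m; without NZO/HlLtJ replicate 2, Serpina3f (0.0462) and Serpina3g (0.038) were called in NZO/HlLtJ; the libraries behind the other calls lost are named beside those results. The strain effect of Irf1 was called without A/J replicate 3 (0.0136), and that of Socs3 with DESeq2 (0.0207), with no filter (0.005), and without PWK/PhJ replicate 1 (0.0268), DBA/2J replicate 4 (0.0199), CAST/EiJ replicate 4 (0.0456) or 129S1/SvImJ replicate 1 (0.0104). The share of Serpina3k was 83.2% to 83.9% with single libraries left out.

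The replicate block left the count at 6 members for the strain effect and 6 in WSB/EiJ, and gave 2 in 129S1/SvImJ, where Serpina3k was gained (adjusted p = 0.0446), and 2 in NOD/ShiLtJ. It ended the calls of Serpina3f in 129S1/SvImJ (adjusted p = 0.0645) and NOD/ShiLtJ (0.0536) and of the strain effect of Igf1 (0.0635). Replicate numbers showed no pairing: deviations of libraries with the same number had a median r of 0.0232 over 76 pairs, against -0.00458 over 248 pairs with different numbers. Depth limits Serpina3f and Serpina3g, whose lowest libraries held 1 and 6 counts.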
